A study of Mus musculus with 3 samples.

Results

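The collagen chain genes are the 44 genes, of 27998 in the deposited count tables, whose whole symbol reads Col, a number, the letter a and a number. They were chosen by symbol alone and grouped by the collagen they build, into 8 fibrillar, 8 basement membrane, 7 cartilage and 21 other chains. All 44 have coordinates in the mm10 build. Their levels were compared in mouse marrow niche cells sequenced as single cells in droplets, with 1 library per group. Mice of the WT group were female CB6F1, a hybrid of BALB/c and C57BL/6, and received no treatment. BMT mice were female CB6F1 given 2 doses of 4.0 Gy of irradiation and, 4 hours later, 5000000 marrow cells from CD45.1 donors of the B6.SJL strain. The aGVHD group was irradiated and transplanted as in BMT and was also given 60000000 spleen cells of female C57BL/6 donors, to bring about acute graft-versus-host disease. BMT against WT therefore addresses irradiation with marrow transfer, and aGVHD against BMT the added spleen cells. Both comparisons use the same BMT library. How many mice stand behind each library, and on which day they were sampled, could not be read from the labels.

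Collagens are trimers of chains wound into a triple helix. Fibrillar collagens such as types I, III and V assemble into the fibrils of bone, tendon and connective tissue, while type IV collagen forms the network of basement membranes under endothelium and around mural cells, Schwann cells and muscle. Cartilage fibrils are built on type II collagen with types IX and XI, and type X marks hypertrophic cartilage.

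Col4a1 and Col4a2, whose products join in the common type IV trimer, lie head to head on chromosome 8 of mm10. Col4a1 spans chr8:11198423-11312826 on the minus strand and Col4a2 chr8:11312805-11449287 on the plus strand. Their promoter windows are printed because the endothelial and mural mixes turn on this pair. Each window runs from 250 bases before to 50 bases after the annotated start, in RefSeq's GRCm38.p6 build, 5′ to 3′ on the gene's own strand. The windows are chr8:11312777-11313076 for Col4a1 and chr8:11312555-11312854 for Col4a2. Capitals mark the 78 bases that both windows share, read from opposite strands, and the annotated transcripts overlap by 22 bases at their starts.
Col4a1: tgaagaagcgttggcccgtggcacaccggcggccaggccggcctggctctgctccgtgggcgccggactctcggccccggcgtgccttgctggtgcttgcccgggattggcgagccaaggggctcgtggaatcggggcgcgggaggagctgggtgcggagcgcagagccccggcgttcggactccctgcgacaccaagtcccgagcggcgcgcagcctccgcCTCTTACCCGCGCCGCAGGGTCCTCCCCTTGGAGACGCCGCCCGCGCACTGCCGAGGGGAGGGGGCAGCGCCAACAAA
Col4a2: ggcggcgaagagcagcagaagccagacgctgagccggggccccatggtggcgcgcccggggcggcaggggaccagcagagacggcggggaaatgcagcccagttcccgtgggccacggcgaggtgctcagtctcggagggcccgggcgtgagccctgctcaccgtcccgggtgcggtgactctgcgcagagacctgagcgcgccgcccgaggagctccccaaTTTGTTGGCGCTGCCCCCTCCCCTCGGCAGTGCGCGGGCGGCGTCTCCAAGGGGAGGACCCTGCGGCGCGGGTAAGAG

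Col1a2 encodes the chain that joins Col1a1 in type I collagen, and the ratio of the pair differed between cell classes. Its window is printed for that reason. It is chr6:4505368-4505667, on the plus strand of the same build. Capitals mark matches on either strand to the motifs CCAAT (2 matches) and, in the same way, GGGCGG (2 matches).
Col1a2: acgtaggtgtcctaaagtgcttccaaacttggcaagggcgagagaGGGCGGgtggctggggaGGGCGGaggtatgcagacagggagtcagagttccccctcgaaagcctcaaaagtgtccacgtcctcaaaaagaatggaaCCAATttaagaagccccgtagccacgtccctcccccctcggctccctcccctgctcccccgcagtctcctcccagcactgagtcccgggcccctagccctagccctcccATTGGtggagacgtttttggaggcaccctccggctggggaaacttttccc

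The first motif was found in 37.4% of 32851 windows of the same length over all genes and in 12 of the 35 collagen windows in the sequence table. The second was found in 35.7% of all windows and in 22 of the 35. A match describes letters in a window and is no evidence of a bound site.

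Barcodes were called as cells at 1000 or more unique molecular identifiers (UMIs) and 500 or more genes, with mitochondrial genes under 10%. This left 7129 barcodes in WT, 3621 in BMT and 5568 in aGVHD, at median depths of 7355, 6932 and 6977.5 UMIs. A barcode entered a cell class, here called a gate, when at least 3 of its 8 marker genes were detected above free RNA, with a lead of 2 markers where another gate passed too. No collagen gene was a marker, and a gate is a resemblance to a cell type. Of 14 gates, 9 are non-haematopoietic, and 6 of these held at least 20 barcodes in every library. They are LepR stromal (1031, 553 and 397 barcodes in WT, BMT and aGVHD), chondrocyte (553, 38 and 28), fibroblast (1527, 270 and 283), tendon (405, 93 and 101), endothelial (537, 800 and 1229) and mural (493, 108 and 88). In these 6 gates 4 of 4 markers kept out of the gate were higher than in the other called barcodes of every library. Summed markers of another class, as the median over barcodes, were highest for tendon markers in the chondrocyte gate, at 5649.5, 5915 and 5000.1 CPM in WT, BMT and aGVHD, and for fibroblast markers in the tendon gate, at 3747, 3800.1 and 1403 CPM. In the endothelial gate they were highest for LepR stromal markers, at 828, 1923 and 846 CPM. In the LepR stromal gate osteolineage markers stood at 4348 CPM in WT, while the highest other class, fibroblast, was at 495 and 76.3 CPM in BMT and aGVHD. The part of such signal in the results was not tested. The osteolineage gate (242, 98 and 12) and the muscle lineage gate (115, 26 and 9) were compared only between WT and BMT, and the Schwann gate (8, 37 and 48) only between BMT and aGVHD. Called barcodes in no gate were 11.2%, 23.4% and 27.2% of the libraries, barcodes left out for passing several gates were 6.83%, 2.38% and 2.999%, and 8 to 11 called barcodes were shared by each pair of libraries.

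Levels are given as CPM, the UMIs of a chain summed over a gate and scaled to 1000000 UMIs of that gate. They are not scaled to gene length, so chains are compared with each other only by how their ratio varied across gates. Where 3 values are given they stand in the order WT, BMT and aGVHD, 2 values are WT and BMT, or BMT and aGVHD in the Schwann gate, and folds in BMT are against WT and folds in aGVHD against BMT. Intervals are exact 95% intervals that cover counting error only. With 1 library per group there is no spread between animals and no test, so a chain was said to differ when it passed a size rule. The rule asked for at least 50 UMIs over both libraries, a 2-fold difference, an interval that excludes 1, and a level on the higher side of at least 2 times that in the empty droplets of the same library. Empty droplets, barcodes of at most 100 UMIs that hold free RNA, carried collagen at 3 levels: WT had 16647 CPM (16552 to 16742), BMT had 15391 CPM (15261 to 15523) and aGVHD had 1174 CPM (1141 to 1208). Free RNA was thus rich in collagen in WT and BMT and poor in aGVHD. It was 53.3%, 77.3% and 51.0% fibrillar and 36.3%, 11.6% and 5.94% cartilage chains.

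The mix of chains differed from gate to gate. Fibrillar chains made up 92.6% (92.6 to 92.7) and 94.5% (94.4 to 94.5) of collagen UMIs in the osteolineage gate, 84.4%, 87.1% and 59.7% in the tendon gate and 83.1%, 77.4% and 56.7% in the fibroblast gate. Cartilage chains made up 89.97% (89.9 to 90.04), 87.8% (87.5 to 88.0) and 78.9% (77.2 to 80.5) in the chondrocyte gate. LepR stromal barcodes, which carry markers of the leptin receptor-positive cells that support blood formation, were more evenly mixed. They held 51.3%, 42.7% and 48.6% fibrillar, 31.0%, 37.7% and 30.5% other and 10.3%, 18.9% and 20.7% basement membrane chains. With each barcode weighed alike, LepR stromal fibrillar chains were 40.4%, 42.8% and 45.2% and other chains 40.8%, 36.5% and 29.1%, so the directions between WT and BMT turned. The 10% of LepR stromal barcodes with the most collagen held 47.7%, 25.2% and 32.5% of the gate's collagen UMIs. In the endothelial gate basement membrane chains were 38.0% (37.3 to 38.7), 89.6% (89.2 to 90.1) and 96.7% (96.3 to 97.1), and in the mural gate 28.6%, 28.3% and 69.1%. By pooled UMIs, fibrillar chains led both of these gates in WT and basement membrane chains led both in aGVHD. With each barcode weighed alike, basement membrane chains led both gates in every library. In the mural gate they were then 48.1%, 56.7% and 66.9%, against 30.4%, 21.6% and 12.7% fibrillar chains. The Schwann gate held 65.1% and 42.2% fibrillar and 21.5% and 39.4% basement membrane chains in BMT and aGVHD.

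**Figure D1:**
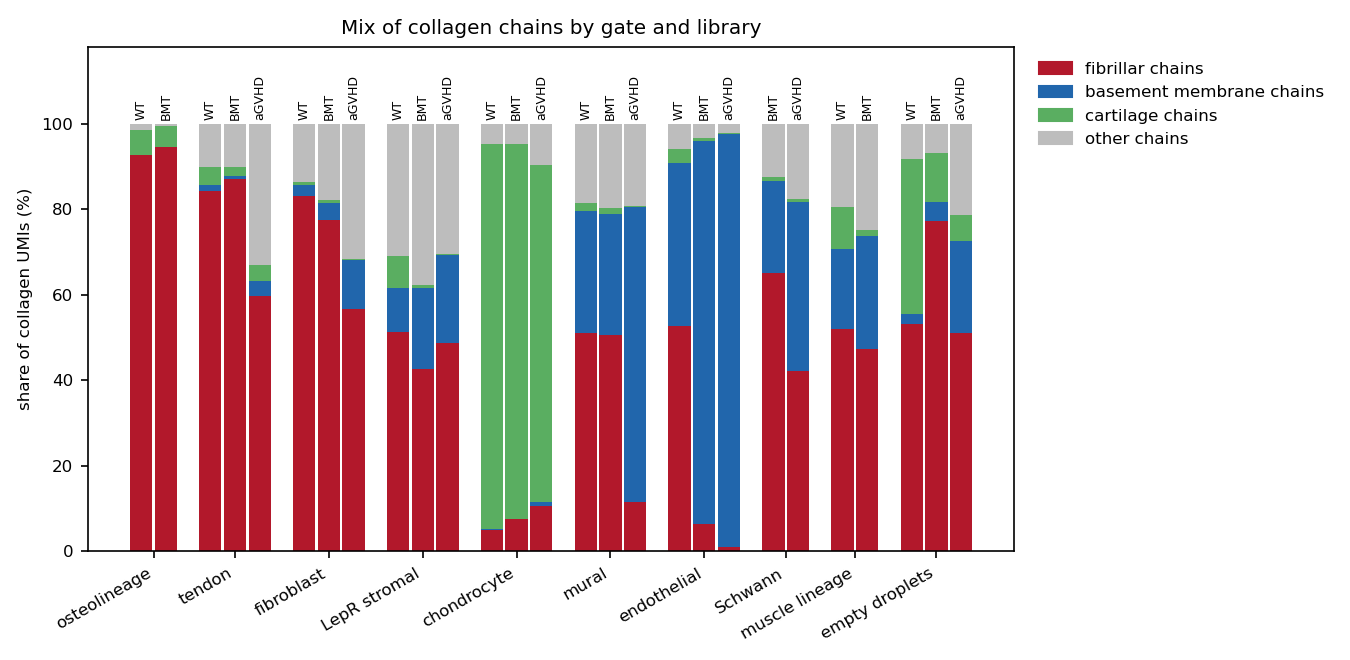
Share of collagen UMIs (vertical axis, %) taken by fibrillar, basement membrane, cartilage and other chains, 1 bar per gate and library with at least 20 barcodes, beside the empty droplets of each library. Endothelial bars are 38.0%, 89.6% and 96.7% basement membrane chains in WT, BMT and aGVHD, against 2.15%, 4.404% and 21.6% in the empty droplets.

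The fibrillar share of the endothelial gate in WT came from few barcodes. The 10% of barcodes with the most collagen, 54 barcodes, held 72.6% of its collagen UMIs and 23.2% of all its UMIs. With each barcode weighed alike, fibrillar chains were 12.8%, 7.79% and 1.21% and basement membrane chains 70.6%, 87.4% and 95.9%. The fibrillar share then differed by -5.01 percentage points between BMT and WT in place of -46.5 points. Fibrillar chains in endothelial barcodes stood at 0.395, 0.0207 and 0.0270 times the empty droplets, below them in every library. Basement membrane chains stood at 7.06, 5.21 and 6.41 times. In the mural gate the 10% of barcodes with the most collagen held 62.2%, 71.6% and 28.3% of the collagen UMIs.

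Summed over all chains, the osteolineage gate had the highest collagen level, at 143869 and 188260.0 CPM in WT and BMT. Chondrocyte barcodes had 75949, 89124 and 10917 CPM, tendon barcodes 41155, 53080.5 and 4101 CPM and fibroblast barcodes 25945, 19962 and 5735 CPM. LepR stromal barcodes had 8679, 5904 and 4647 CPM, endothelial barcodes 6648, 3938 and 1685 CPM and mural barcodes 5581, 7591 and 2173 CPM. The ratio of BMT to WT reached 2-fold in none of these gates and ran from 0.592 in the endothelial to 1.36 in the mural gate. These 2 ratios had no steady direction: over the other settings the endothelial ratio ran from 0.511 to 1.16 and the mural ratio from 0.656 to 1.81. The median level over endothelial barcodes was higher in BMT than in WT, at 2114, 3585 and 1344 CPM. In aGVHD the level was at least 2-fold lower than in BMT in 5 of the 6 complete gates. It was 12.9-fold lower (12.3 to 13.6) in tendon, 8.16-fold lower (7.84 to 8.51) in chondrocyte, 3.49-fold lower (3.29 to 3.71) in mural, 3.48-fold lower (3.41 to 3.55) in fibroblast and 2.34-fold lower (2.28 to 2.40) in endothelial barcodes. The LepR stromal level was 1.27-fold lower (1.25 to 1.29) and the Schwann level 1.73-fold lower (1.58 to 1.89), both under the 2-fold limit.

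Free RNA moved in the same direction, and its part in these differences was not tested beyond 1 setting. With free RNA subtracted, the levels of BMT and aGVHD were 53127 and 4126 CPM in tendon, 89214 and 10958 CPM in chondrocyte, 7566 and 2181 CPM in mural, 20225 and 6115 CPM in fibroblast and 3764 and 1749 CPM in endothelial barcodes, still more than 2-fold apart. The subtraction used the smaller of 2 estimates of free RNA, from granule and from haemoglobin genes. It was 0.210% to 0.876% of UMIs in tendon, chondrocyte and mural barcodes, although haemoglobin genes gave 15.2% in tendon of aGVHD. So small a part could hardly change these levels, and the setting cannot tell what free RNA contributed there. Depth moved as well: the median UMIs of BMT and aGVHD barcodes were 9777 and 3182 in the tendon gate and 22486 and 5586 in the chondrocyte gate. Summed gate markers were 22076 and 11970 CPM in tendon and 8167 and 4751 CPM in fibroblast barcodes of BMT and aGVHD. They were 17390 and 25374 CPM in chondrocyte, 15863 and 15684 in mural and 6085 and 5405 in endothelial barcodes. At the minimum of 3 markers stood 9 of 93 and 32 of 101 tendon barcodes. Markers were detected against each library's own empty droplets, and what this contributed was not tested. The mural difference rested on few barcodes, since its ratio of 0.286 became 0.652 without the 10% of barcodes with the most UMIs and 0.553 with at least 4 markers.

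**Figure D2:**
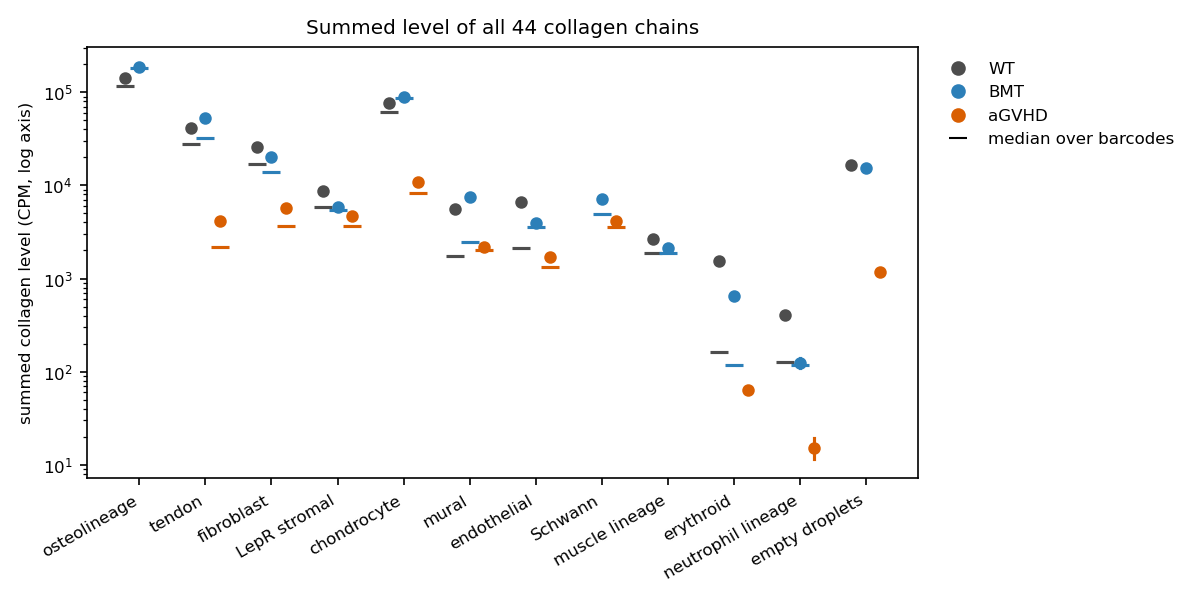
Summed level of the 44 collagen chains (vertical axis, CPM, log scale) in each gate and library with at least 20 barcodes. Points are levels pooled over a gate with their exact 95% counting intervals, dashes are medians over barcodes where above 0, and the aGVHD points of the tendon and chondrocyte gates, at 4101 and 10917 CPM, lie far under those of BMT.

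Few chains passed the size rule between BMT and WT. Among LepR stromal barcodes 0 of 30 measured chains were higher in BMT, beside 2.78% of all measured genes, and 0 lower, beside 0.789%. A further 13 chains were at least 2-fold lower but missed the limit from empty droplets. The share of all genes that did so is not given, so that count has no background. For fibroblasts 2 of 33 were higher (1.12% of all genes) and 1 lower (0.925%). For tendon 1 of 28 was higher (1.66%) and 1 lower (1.69%), and for osteolineage barcodes 0 of 29 were higher (0.473%) and 1 lower (0.946%). For chondrocyte barcodes 0 of 27 were higher (1.1%) and 2 lower (1.4%). For endothelial barcodes 0 of 22 were higher (2.68%) and 3 lower (1.75%). No chain passed among 20 in the mural gate (1.29% of all genes higher, 1.58% lower) or 14 in the muscle lineage gate (2.58% and 2.24%).

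Between aGVHD and BMT more chains passed, nearly all of them lower. For tendon 14 of 19 measured chains were lower (7.64% of all genes) and 0 higher (2.31%), and 8 passed when barcodes were thinned to 1000 UMIs. For chondrocyte barcodes 10 of 19 were lower (8.46%) and 0 higher (5.34%), and for fibroblasts 10 of 23 were lower (2.98%) and 1 higher (1.25%). For LepR stromal barcodes 1 of 21 was lower (3.81%) and 1 higher (1.28%). For endothelial barcodes 2 of 15 were lower (1.93%) and 0 higher (1.39%). The mural gate had 1 of 17 lower (2.38%) and 0 higher (0.517%), and the Schwann gate 0 of 12 lower (5.74%) and 1 higher (4.71%).

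The median log2 fold over measured chains in aGVHD against BMT was -2.75 in chondrocyte, -2.05 in tendon, -1.35 in fibroblast, -2.78 in endothelial, -1.66 in mural and -0.37 in LepR stromal barcodes. Over all measured genes it was -0.18, -0.25, -0.09, -0.03, -0.06 and -0.14 in the same order. In BMT against WT the chain medians were -0.80 in LepR stromal, -1.41 in osteolineage and -2.39 in endothelial barcodes, beside 0.13, -0.21 and -0.01 over all genes. In these gates 13, 16 and 18 chains were at least 2-fold lower, but only 0, 1 and 3 also met the limit from empty droplets. The other medians were -0.25 in fibroblast, 0.03 in tendon, 0.15 in chondrocyte, 0.29 in mural and 0.04 in muscle lineage barcodes. Over all genes they were 0.02, 0.08, 0.005, -0.03 and -0.03. A chain measured only through the library where it was high had to differ, so these medians describe the measured chains and no more.

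**Figure D3:**
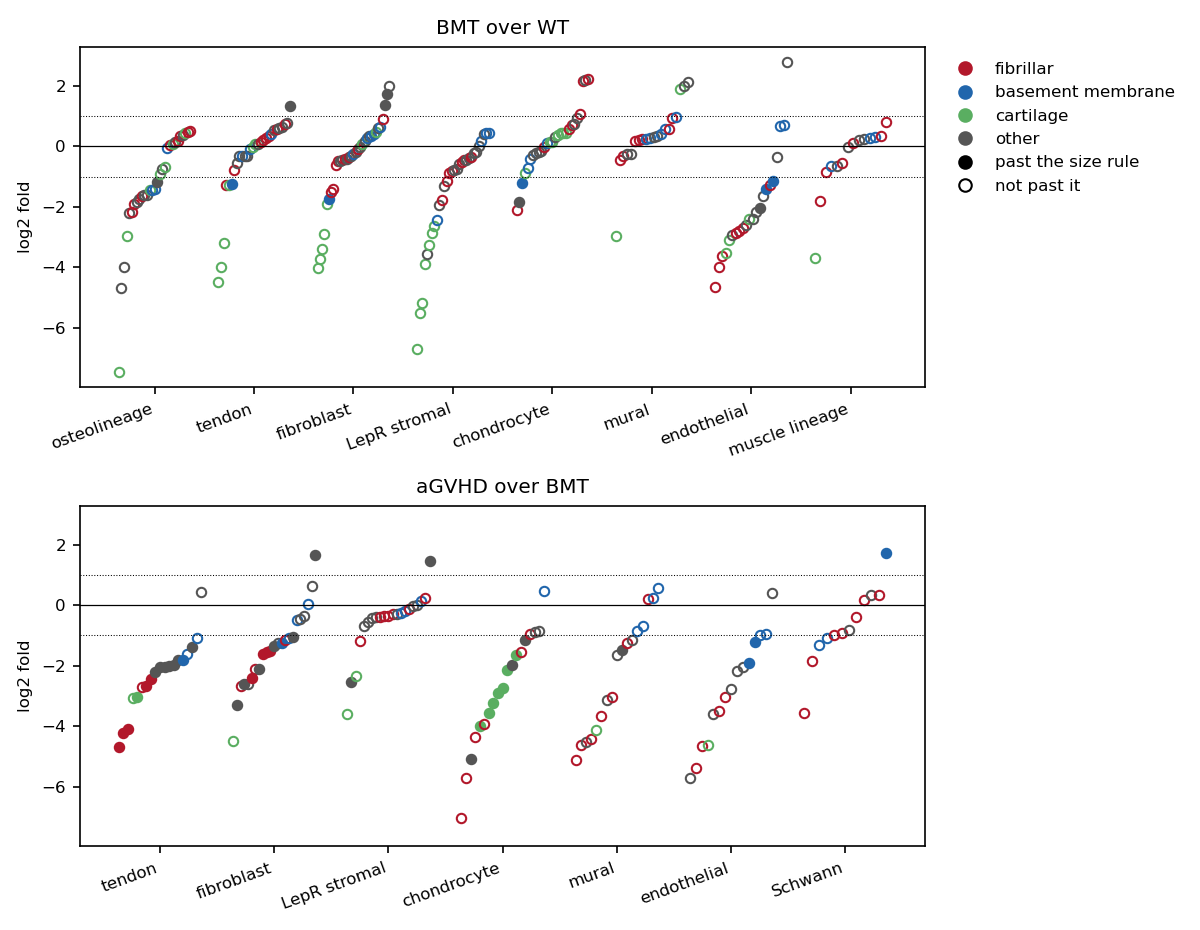
Log2 fold of each chain measured with at least 50 UMIs over both libraries (vertical axis), for BMT over WT and for aGVHD over BMT, by gate. Filled points passed the size rule, dotted lines mark 2-fold, and chains with 0 UMIs in 1 library are set at a floor of 3 UMIs. In the tendon gate 14 of 19 chains are filled points below the lower dotted line in aGVHD over BMT.

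Type I collagen, the main protein of bone and tendon fibrils, is built of Col1a1 and Col1a2 chains. Osteolineage Col1a1 stood at 70755 and 100615 CPM and Col1a2 at 56298 and 72141 CPM in WT and BMT. Tendon Col1a1 was 13337, 20003 and 778 CPM and Col1a2 14444, 18508 and 980.0 CPM. Both were far lower in the tendon gate of aGVHD, Col1a1 25.7-fold lower (22.9 to 28.9) and Col1a2 18.9-fold lower (17.1 to 21.0). Fibroblast Col1a1 was 4682, 3470.2 and 541 CPM and Col1a2 6206, 4029.8 and 925 CPM. The BMT values there were 0.625 and 0.817 times the empty droplets, so neither could pass the rule against aGVHD. LepR stromal Col1a1 was 862, 394 and 319 CPM and Col1a2 1946, 1373 and 1258 CPM, or 0.247, 0.0710 and 2.29 and 0.676, 0.278 and 5.79 times the empty droplets. Only the aGVHD levels of the pair stood above those of the empty droplets in that gate. Free RNA was estimated at 9.13%, 1.56% and 3.37% of the gate's UMIs, by the smaller of 2 estimates. A level below the empty droplets therefore does not show that the UMIs were free RNA. In the chondrocyte gate of aGVHD, Col1a1 had 0 UMIs against 1652 in BMT, but the BMT level was 0.329 times the empty droplets.

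In endothelial and mural barcodes the type I and III chains were below 2 times their level in the empty droplets. Endothelial Col1a1 was 1122, 90.2 and 2.18 CPM, Col1a2 1400.0, 88.7 and 3.49 CPM and Col3a1 759.7, 30.6 and 3.71 CPM. Mural Col1a1 was 556, 1056 and 43.3 CPM, Col1a2 672, 1008 and 46.9 CPM and Col3a1 1167, 1325 and 37.9 CPM. Relative to the empty droplets, mural Col3a1 stood at 0.668, 1.76 and 0.291 times and endothelial Col3a1 at 0.435, 0.0406 and 0.0285 times.

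The type I chains were not in 1 ratio in every gate. Osteolineage barcodes held 1.26 (1.25 to 1.26) and 1.39 (1.39 to 1.40) Col1a1 UMIs per Col1a2 UMI in WT and BMT. The ratio was 0.923 (0.912 to 0.935), 1.08 (1.06 to 1.10) and 0.794 (0.680 to 0.926) in the tendon gate and 0.754 (0.747 to 0.762), 0.861 (0.841 to 0.882) and 0.585 (0.542 to 0.631) in the fibroblast gate. LepR stromal barcodes had 0.443 (0.430 to 0.457), 0.287 (0.276 to 0.299) and 0.254 (0.240 to 0.268), and empty droplets 1.21 (1.19 to 1.23), 1.13 (1.10 to 1.15) and 0.643 (0.577 to 0.715). The LepR stromal intervals lay below those of the empty droplets and of the tendon and fibroblast gates in each library.

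**Figure D4:**
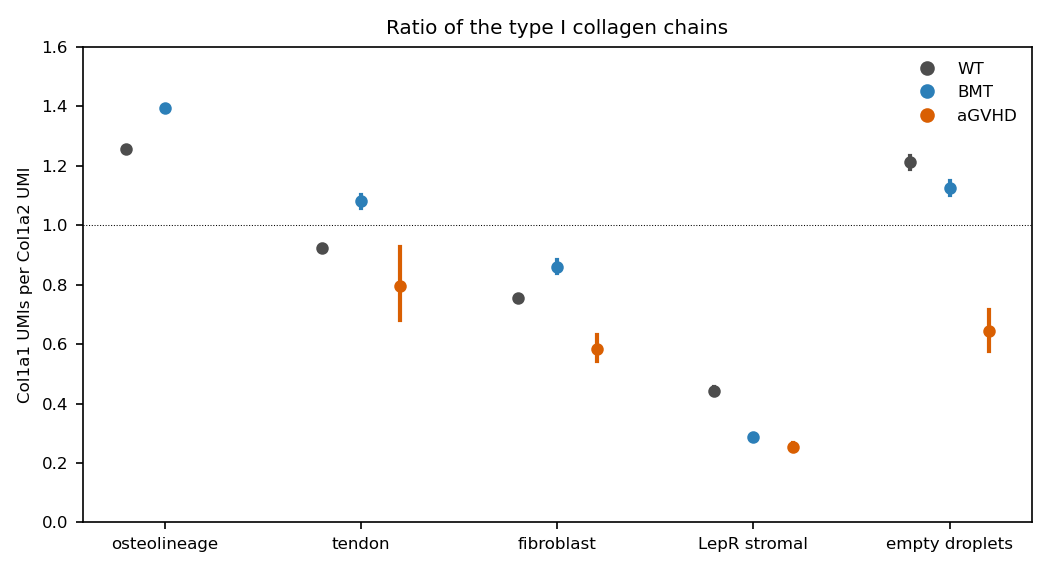
Col1a1 UMIs per Col1a2 UMI (vertical axis) by gate and in the empty droplets, for each library, with exact 95% counting intervals. LepR stromal points lie at 0.443, 0.287 and 0.254 in WT, BMT and aGVHD and osteolineage points at 1.26 and 1.39 in WT and BMT.

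Col3a1, the type III chain of pliable connective tissue, was highest in fibroblasts, at 8815, 6244 and 1192 CPM. It was 5.24-fold lower (5.02 to 5.47) in aGVHD and stood at 5.04, 8.27 and 9.17 times the empty droplets. Tendon Col3a1 was 5269, 5799 and 344 CPM, 16.9-fold lower (14.2 to 20.2) in aGVHD, and LepR stromal Col3a1 was 971, 286 and 341 CPM. Fibroblasts held 1.42, 1.55 and 1.29 Col3a1 UMIs per Col1a2 UMI, tendon barcodes 0.365, 0.313 and 0.351 and osteolineage barcodes 0.0509 and 0.0106. The order of these 3 gates was the same wherever they were measured. Fibroblasts did not have the highest ratio of all gates. Mural barcodes held 1.74 (1.64 to 1.84) and 1.31 (1.21 to 1.43) in WT and BMT, and muscle lineage barcodes 3.22 (2.66 to 3.90) and 7.70 (3.97 to 16.7).

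Type V chains, which join type I fibrils and control their width, had their highest mean level in the osteolineage gate (Col5a1 and Col5a2) and in Schwann barcodes (Col5a3). Osteolineage Col5a1 was 557 and 630.0 CPM and Col5a2 2603 and 3595 CPM in WT and BMT. Schwann Col5a3 was 207 and 105 CPM in BMT and aGVHD, from 56 UMIs. Its mean of 156 CPM leaves out WT and was near the fibroblast mean of 146 CPM over 3 libraries. The fibroblast level was higher than the Schwann level in BMT and lower in aGVHD. Fibroblast Col5a1 was 574, 451 and 154 CPM, 2.93-fold lower (2.59 to 3.32) in aGVHD. Fibroblast Col5a2 was 1063, 1001 and 351 CPM, 2.85-fold lower (2.63 to 3.099), and Col5a3 126, 236 and 76.6 CPM, 3.08-fold lower (2.59 to 3.69). All 3 type V chains were thus lower in aGVHD fibroblasts. Tendon Col5a1 was 381, 457 and 72.4 CPM, 6.31-fold lower (4.31 to 9.61) in aGVHD, and Col5a2 1157, 1350.2 and 248 CPM, 5.44-fold lower (4.42 to 6.76).

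The rarer fibrillar chains were each highest in 1 skeletal gate. Col24a1, a fibrillar chain of bone, was 100.1 and 102 CPM in osteolineage barcodes of WT and BMT, 14.0 times the next gate on average and 11.8 and 9.31 times the empty droplets. Col27a1, a fibrillar chain of cartilage, was 1848, 1799.5 and 927 CPM in chondrocyte barcodes, 5.96 times the next gate on average. It was 1.94-fold lower (1.68 to 2.26) in aGVHD and did not pass the rule.

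The common type IV trimer holds Col4a1 and Col4a2 chains. Endothelial Col4a1 was 1264, 2075 and 901 CPM and Col4a2 785, 1255 and 654 CPM, or 7.49, 5.88 and 6.85 and 7.87, 5.00 and 6.81 times the empty droplets. Both were highest in BMT and lowest in aGVHD. Col4a1 was 2.30-fold lower (2.22 to 2.39) in aGVHD, while Col4a2 was 1.92-fold lower (1.84 to 2.01) and did not pass. Mural Col4a1 was 758, 1133 and 628 CPM and Col4a2 519, 621 and 384 CPM. LepR stromal Col4a1 was 531, 713 and 620.1 CPM and Col4a2 324, 370.3 and 308 CPM. There were 1.61, 1.65 and 1.38 Col4a1 UMIs per Col4a2 UMI in endothelial, 1.46, 1.83 and 1.63 in mural and 1.64, 1.92 and 2.01 in LepR stromal barcodes, and 1.69, 1.41 and 1.37 in empty droplets.

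Col15a1 and Col18a1 build related collagens of the basement membrane zone, and Col18a1 is the source of endostatin. Endothelial Col15a1 was 256, 116 and 30.8 CPM, 2.21-fold lower (1.97 to 2.47) in BMT and 3.76-fold lower (3.12 to 4.56) in aGVHD. Its level fell in the order WT, BMT, aGVHD. Endothelial Col18a1 was 218, 82.8 and 41.5 CPM, 2.63-fold lower (2.31 to 2.997) in BMT. Col15a1 had its highest mean level in the tendon gate, close to the endothelial level, at 279.5, 118 and 33.6 CPM. It was 2.37-fold lower (1.96 to 2.90) there in BMT and 3.50-fold lower (1.97 to 6.77) in aGVHD. Chondrocyte Col15a1 was 116, 49.8 and 69.2 CPM, 2.33-fold lower (1.73 to 3.21) in BMT, and fibroblast Col15a1 137, 116 and 48.7 CPM, 2.38-fold lower (1.90 to 2.997) in aGVHD. Thinned to 1000 UMIs per barcode, Col15a1 did not pass in tendon or in the chondrocyte gate, with ratios of 0.628 in tendon BMT over WT, 0.246 in tendon aGVHD over BMT and 0.508 in chondrocyte BMT over WT. Other settings ended these calls too. Tendon BMT over WT was 0.5002 with at least 4 markers and 0.520 with at least 2. Tendon aGVHD over BMT was 0.542 with barcodes of several gates kept, and chondrocyte BMT over WT 0.542 with markers at 5 times free RNA.

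The endothelial gate was not the same blend of vessels in each library. Barcodes with Gpihbp1, a gene of capillary endothelium, and without Selp, a gene of venous endothelium, were 46.6%, 85.8% and 91.1% of the gate. Within them basement membrane chains were 72.8%, 90.2% and 96.9% of collagen UMIs. Col4a1 was 2046, 2222 and 869 CPM in these barcodes, 2.56-fold lower (2.46 to 2.66) in aGVHD, with a ratio of BMT to WT of 1.09 (1.04 to 1.14). Col4a2 was 1271, 1363 and 637 CPM, 2.14-fold lower (2.04 to 2.24) in aGVHD. Col15a1 was 242, 115 and 24.97 CPM, 2.10-fold lower (1.79 to 2.45) in BMT and 4.62-fold lower (3.71 to 5.79) in aGVHD, and Col18a1 196, 70.6 and 30.2 CPM, 2.77-fold lower (2.31 to 3.33) and 2.34-fold lower (1.88 to 2.92). The lower levels of these chains were therefore also present within the subset. Barcodes with Selp and without Gpihbp1 numbered 99, 10 and 7, fewer than 20 outside WT.

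The remaining basement membrane chains were those of mural and Schwann barcodes. Mural Col4a5 was 48.3, 64.6 and 75.8 CPM, 11.8, 31.9 and 60.8 times the empty droplets and 5.54 times the next gate on average. Mural Col4a3 was 6.86, 6.95 and 1.80 CPM, from 28 of 53 gated UMIs, and Col4a6 had 29 of 43 of its gated UMIs in the mural gate. Col4a4 was highest in Schwann barcodes, but from 4 UMIs, at 22.4 and 0 CPM. Fibroblast Col4a5 was 21.6, 6.43 and 6.09 CPM, 3.35-fold lower (2.21 to 5.31) in BMT. It no longer passed after thinning to 1000 UMIs, at a ratio of 0.298. Schwann Col18a1 was 359 and 1186 CPM in BMT and aGVHD, from 64 and 215 UMIs. It was 3.31-fold higher (2.49 to 4.44) in aGVHD, at 8.91 and 58.1 times the empty droplets, where the summed collagen level was lower. Mural Col18a1 was 228, 269 and 404 CPM, with no 2-fold difference.

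Cartilage chains belonged mainly to the chondrocyte gate. Col2a1, the chain of the type II homotrimer, was 43923, 48353 and 4071 CPM, 20.01 times the next gate on average. It was 11.9-fold lower (11.1 to 12.7) in aGVHD, yet stood at 154 times the empty droplets. Type IX chains sit on the surface of type II fibrils. Col9a1 was 3465, 4716 and 295 CPM, 16.0-fold lower (12.5 to 20.8) in aGVHD. Col9a2 was 2897, 3967 and 1282 CPM, 3.096-fold lower (2.74 to 3.51), and Col9a3 4322, 5855 and 779 CPM, 7.52-fold lower (6.45 to 8.81). The chains of this trimer were not lower to the same degree. There were 1.25 (1.23 to 1.27), 1.24 (1.19 to 1.29) and 2.64 (1.97 to 3.58) Col9a3 UMIs per Col9a1 UMI.

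Type XI chains form the core of cartilage fibrils. Chondrocyte Col11a1 was 7603, 9855 and 1037 CPM, 9.50-fold lower (8.32 to 10.9) in aGVHD, and Col11a2 3780.4, 4203 and 959 CPM, 4.38-fold lower (3.81 to 5.06). Col10a1 was 2342, 1268 and 189 CPM, 6.71-fold lower (4.91 to 9.40). The aGVHD values of this gate rest on 28 barcodes, and markers of the tendon gate were the highest of any other class in it in every library. Both type XI chains were high outside cartilage too. Osteolineage Col11a1 was 4381 and 6012 CPM and Col11a2 2002 and 2109 CPM in WT and BMT, at 7.56 and 15.7 and 3.34 and 6.04 times the empty droplets. Osteolineage Col2a1 stood at 0.582 and 1.58 times. The Col11a1 to Col2a1 ratio was 2.09 (2.04 to 2.15) and 5.39 (5.21 to 5.57) in osteolineage barcodes, against 0.173, 0.204 and 0.255 in chondrocyte barcodes and 0.161, 0.544 and 0.613 in empty droplets. Tendon Col11a1 was 877, 872 and 106 CPM, 8.23-fold lower (6.01 to 11.5) in aGVHD. That call ended under 5 settings, among them at least 4 markers and thinning to 1000 UMIs, at ratios of 0.2201 and 0.226.

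**Figure D5:**
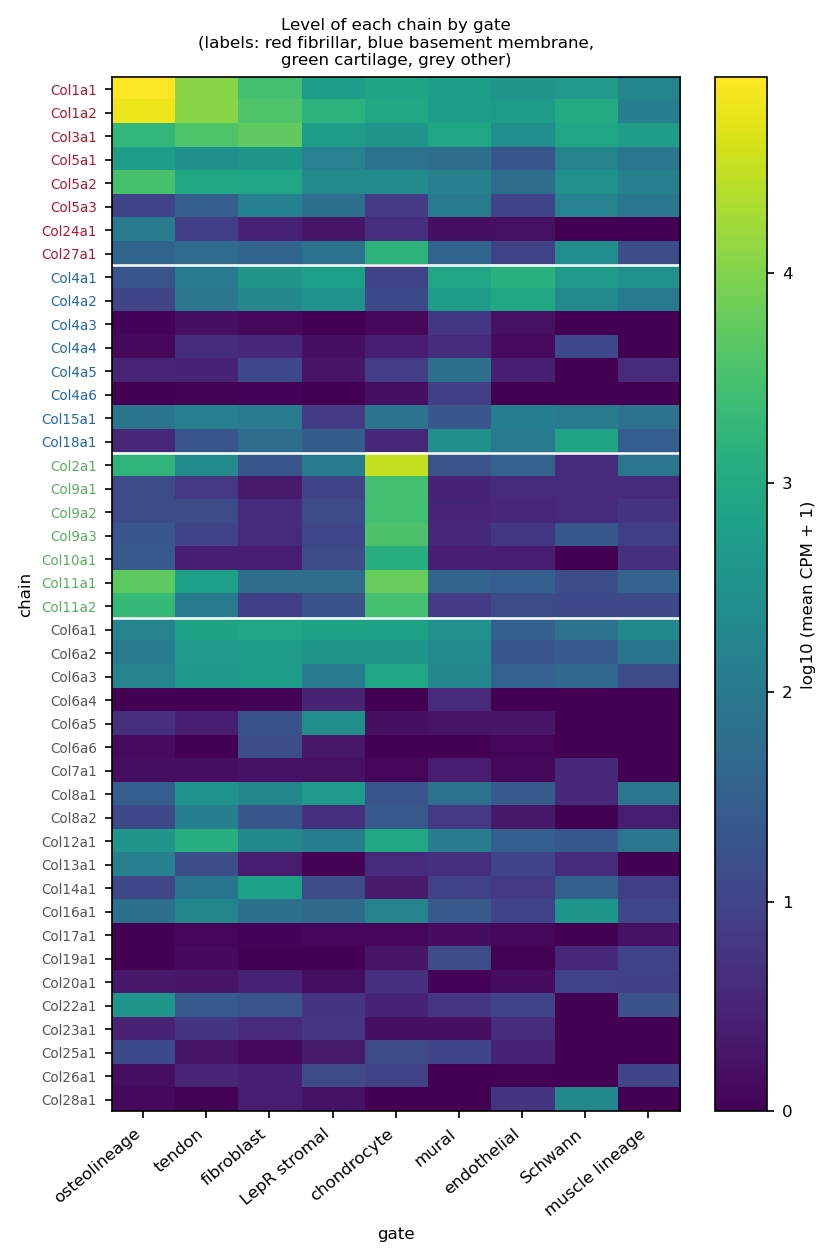
Level of each of the 44 chains in 9 non-haematopoietic gates, as log10 of 1 plus the mean CPM over libraries with at least 20 barcodes, with chains ordered by kind. Cartilage chains are highest in the chondrocyte gate, with Col2a1 at a mean of 32115 CPM. Mean Col11a1 is 5196 CPM in the osteolineage gate, over WT and BMT only, and 6165 CPM in the chondrocyte gate, over all 3 libraries. In WT and BMT the osteolineage levels were 4381 and 6012 CPM, against 7603 and 9855 CPM in chondrocyte barcodes.

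Type VI chains, which form beaded filaments around cells, were shared by most stromal gates. Fibroblast Col6a1 was 1042, 776 and 561 CPM and Col6a2 640.5, 516 and 403 CPM, and LepR stromal Col6a1 was 874, 676 and 552 CPM, none with a 2-fold difference that passed. Mural Col6a1 was 346, 433 and 137 CPM and did not pass either. Tendon Col6a1 was 1026, 825 and 202 CPM, 4.09-fold lower (3.24 to 5.23) in aGVHD, and Col6a2 691, 558 and 158 CPM, 3.54-fold lower (2.71 to 4.69). Chondrocyte Col6a2 was 528, 449 and 203 CPM, 2.21-fold lower (1.62 to 3.09). That call ended under 4 settings, at ratios of 0.553 with at least 2 markers, 0.526 with barcodes of several gates kept, 0.547 without the 10% of barcodes with the most UMIs and 0.494 after thinning to 1000 UMIs.

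The third chain of the type VI trimer, Col6a3, did not have 1 direction in aGVHD. Chondrocyte Col6a3 was 1125, 998 and 254 CPM, 3.93-fold lower (2.996 to 5.26) in aGVHD, and tendon Col6a3 701, 483 and 119 CPM, 4.06-fold lower (2.997 to 5.62). After thinning to 1000 UMIs these calls ended, at ratios of 0.2375 and 0.460. Fibroblast Col6a3 was 712, 523 and 206 CPM, 2.55-fold lower (2.29 to 2.84), and mural Col6a3 264, 222 and 79.4 CPM, 2.79-fold lower (2.01 to 3.95). The mural call ended under 5 settings, at ratios of 0.658 with at least 4 markers, 0.486 with markers at 5 times free RNA, 0.415 with barcodes of several gates kept, 0.523 without the top 10% and 0.184 after thinning. In LepR stromal barcodes it was 125, 50.3 and 138 CPM, 2.74-fold higher (2.42 to 3.11) in aGVHD, at 0.437, 0.474 and 4.61 times the empty droplets. The LepR stromal ratio was 1.96 without the 10% of barcodes with the most UMIs and 1.72 after thinning to 1000 UMIs, under the 2-fold limit in both.

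Of the alternative type VI chains, Col6a5 was highest in LepR stromal barcodes, at 393, 233 and 175 CPM. This was 10.8, 4.91 and 12.1 times the empty droplets and 16.6 times the next gate on average, with 5419 of 5755 gated UMIs. Fibroblast Col6a5 was 9.57, 9.38 and 29.4 CPM, 3.14-fold higher (2.03 to 4.92) in aGVHD, from 35 and 58 UMIs. It no longer passed with barcodes of several gates kept or after thinning, at ratios of 3.15 and 3.82. Col6a6 was highest in fibroblasts instead, at 15.2, 11.0 and 17.3 CPM and with 296 of 325 gated UMIs. Col6a4 was sparse, at 1.71, 3.97 and 3.61 CPM in its highest gate, the mural gate.

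Col8a1, a network-forming chain of vessel walls, was highest in LepR stromal barcodes, at 526, 690.5 and 119 CPM, or 11.3, 5.96 and 8.53 times the empty droplets. It was 5.80-fold lower (5.33 to 6.32) in aGVHD. Fibroblast Col8a1 was 114, 381 and 62.9 CPM, 3.34-fold higher (3.11 to 3.59) in BMT and 6.05-fold lower (5.03 to 7.33) in aGVHD. Both calls ended with markers at 5 times free RNA, at ratios of 1.997 and 0.285. Tendon Col8a1 was 331, 521 and 132 CPM, 3.95-fold lower (2.96 to 5.38) in aGVHD. The lower level in aGVHD was thus seen in 3 gates. Its partner Col8a2 was highest in the tendon gate, at 159, 169.6 and 64.6 CPM, 2.62-fold lower (1.72 to 4.17) in aGVHD, and fibroblast Col8a2 was 23.6, 29.8 and 3.04 CPM, 9.77-fold lower (4.35 to 27.2). The fibroblast value in aGVHD rests on 6 UMIs, and the call ended at ratios of 0.227 with at least 4 markers, 0.324 with markers at 5 times free RNA and 0.358 after thinning.

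Col12a1, which decorates type I fibrils, was highest in the tendon gate, at 943, 2394 and 517 CPM. It was 2.54-fold higher (2.41 to 2.68) in BMT and 4.63-fold lower (4.01 to 5.37) in aGVHD. Fibroblast Col12a1 was 142, 365 and 83.7 CPM, 2.56-fold higher (2.39 to 2.75) in BMT and 4.35-fold lower (3.70 to 5.15) in aGVHD. Osteolineage Col12a1 was 509 and 224 CPM in WT and BMT, 2.28-fold lower (2.10 to 2.47) in BMT. These calls rested on how the gates were drawn. With at least 4 markers the ratio of BMT to WT was 1.59 in tendon, 1.04 in fibroblast and 0.588 in osteolineage barcodes, and none of these passed. The fibroblast ratio of aGVHD to BMT was 0.646 with at least 4 markers, 0.764 with at least 2 and 0.718 with markers at 5 times free RNA, and did not pass either. Chondrocyte Col12a1 was 897, 1728 and 50.7 CPM, 34.1-fold lower (19.0 to 68.4) in aGVHD.

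Col14a1, another chain of fibril surfaces, was highest in fibroblasts, at 729.7, 822 and 401 CPM, or 7.27, 18.6 and 29.3 times the empty droplets. It was 2.05-fold lower (1.90 to 2.22) in aGVHD, at the edge of the rule, and did not pass under 4 other settings. Col16a1 was highest in Schwann barcodes, at 353 and 441 CPM in BMT and aGVHD, and tendon Col16a1 was 199, 288 and 69.8 CPM, 4.13-fold lower (2.78 to 6.38) in aGVHD. Mural Col19a1 was 6.51, 25.8 and 7.21 CPM, with 49 of 72 gated UMIs. Col22a1, known from the junction of muscle and tendon, was 358 and 399.6 CPM in osteolineage barcodes of WT and BMT, 16.0 times the next gate on average.

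Col13a1, Col23a1 and Col25a1 encode chains that span the cell membrane. Col13a1 was highest in osteolineage barcodes, at 121 and 157 CPM in WT and BMT. Endothelial Col13a1 was 22.5, 5.45 and 0.655 CPM, 4.12-fold lower (2.56 to 6.79) in BMT, from 61 UMIs in WT and 26 in BMT. It no longer passed after thinning to 1000 UMIs, at a ratio of 0.336. Chondrocyte Col25a1 was 15.9, 4.42 and 18.4 CPM, 3.59-fold lower (1.37 to 13.4) in BMT from 4 UMIs, and its direction turned when barcodes were thinned to 1000 UMIs. Col23a1 was highest in LepR stromal barcodes, at 5.76, 5.81 and 3.60 CPM, and so was Col26a1, a secreted chain, at 14.3, 12.5 and 12.4 CPM. Col28a1, a chain known from the sheath of peripheral nerves, had 71 of 169 gated UMIs in Schwann barcodes, at 252 and 143 CPM in BMT and aGVHD and 40.4 times the next gate on average. Col7a1, at 0 and 5.52 CPM, and Col20a1, at 11.2 and 5.52 CPM, had their highest mean in the Schwann gate from 0 and 1 and from 2 and 1 UMIs. Of 44 chains 42 had at least 50 gated UMIs, and the others were Col4a6 with 43 and Col17a1 with 28.

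Genes that make, crosslink or bind collagen were read from 4 lists. Of 25 biosynthesis genes, 8 of 21 measured were lower in the tendon gate of aGVHD and 10 of 20 in the chondrocyte gate, beside 7.64% and 8.46% of all genes. None was higher in either, beside 2.31% and 5.34%. Serpinh1, the collagen chaperone, was 238 against 1278 CPM in tendon (5.37-fold lower, 4.35 to 6.71) and 401 against 2890.1 CPM in chondrocyte barcodes of aGVHD and BMT (7.21-fold lower, 5.82 to 9.03). In fibroblasts 1 of 22 members was lower in aGVHD (beside 2.98% of all genes), Adamts2, a procollagen N-propeptidase, at 95.4 against 200.2 CPM and 2.10-fold lower (1.79 to 2.48). Adamts2 was also the only one of 23 members to differ in LepR stromal barcodes of BMT, 2.44-fold lower (2.28 to 2.61), beside 0.789% of all genes lower. LepR stromal Plod2, a lysyl hydroxylase, was 2.33-fold lower (2.11 to 2.59) in aGVHD and Adamts14 2.14-fold higher (1.64 to 2.80), of 22 measured, beside 3.81% of all genes lower and 1.28% higher. Endothelial Colgalt2, a collagen galactosyltransferase, was 3.96-fold lower (2.52 to 6.47) in aGVHD, from 24 and 99 UMIs in aGVHD and BMT. It was 1 of 21 measured members, beside 1.93% of all genes lower.

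Of 7 crosslinking genes, 2 of 6 measured were higher in LepR stromal barcodes of aGVHD, beside 1.28% of all genes. Loxl3, a lysyl oxidase, was 168 against 55.5 CPM in aGVHD and BMT, 3.03-fold higher (2.69 to 3.40). Tgm2, a transglutaminase, was 444 against 155 CPM, 2.86-fold higher (2.67 to 3.07), and in endothelial barcodes it was 2.13-fold higher (1.97 to 2.31). There it was 1 of 3 measured, beside 1.39% of all genes higher. Fibroblast Loxl2 was 2.19-fold lower (1.89 to 2.56) in aGVHD, as 1 of 6 measured, beside 2.98% of all genes.

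Of 10 collagen receptors, Itga1, the alpha chain of an integrin that binds type IV collagen, was 49.4 against 146 CPM in LepR stromal barcodes of aGVHD and BMT, 2.95-fold lower (2.57 to 3.39). Endothelial Itga1 was 204 against 66.3 CPM in BMT and WT, 3.08-fold higher (2.63 to 3.64), as 1 of 5 measured receptors, beside 2.68% of all genes. Ddr1, a collagen receptor kinase, was 2.06-fold lower (1.67 to 2.55) in LepR stromal barcodes of aGVHD. Itga1 and Ddr1 were the 2 of 6 measured receptors lower there, beside 3.81% of all genes. Fibroblast Ddr1 was 2.15-fold higher (1.27 to 3.68) in aGVHD, from 33 and 29 UMIs, and Itgb1 2.22-fold lower (2.02 to 2.44). That was 1 higher and 1 lower of 6 measured, beside 1.25% and 2.98% of all genes. Of 15 basement membrane partners, 1 of 10 measured was higher in endothelial barcodes of aGVHD (beside 1.39% of all genes), the laminin chain Lama5, at 131 against 60.6 CPM and 2.15-fold higher (1.87 to 2.49), while Col4a1 was lower there. LepR stromal Lama1 was 7.20 against 16.3 CPM, 2.26-fold lower (1.56 to 3.37), as 1 of 10 measured, beside 3.81% of all genes.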

How the data were processed

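Single-cell RNA counts of 3 libraries, 1 per group, were analysed, with 86575425, 44219063 and 67439098 UMIs in WT, BMT and aGVHD. The deposited values are whole-number UMI counts per gene and barcode, not normalised, written by Cell Ranger 3.1.0 per the file headers. The mm10 build and Seurat are named in the submitters' processing notes. Counting settings were not stated in the labels. Per the labels' protocols, CD45, lineage and CD71 cells were depleted by sorting and live cells kept.

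A marker was detected when a barcode had at least 1 UMI of it and a share at least 2 times that in the empty droplets. Counts were summed per gate and library, and ratios have exact intervals conditional on the summed UMIs (python 3.11.15, numpy 2.4.6, scipy 1.17.1). A gene at 0 was set to a floor of 3 UMIs. Barcodes passing several gates with a smaller lead were left out, and no doublet caller was run. The code was tested on simulated data. Values are given for the 6 chains with the highest mean level in each complete gate, each chain past the size rule, the gate of each chain's highest level where it had at least 50 gated UMIs, and list members past the rule in the LepR stromal, fibroblast and endothelial gates. Other levels, ratios of chains and Serpinh1 were named after their values were seen. The members, markers and lists were chosen with earlier results of these data known. Promoter sequences are RefSeq's, found for 35 of 44 chains. Alternatives covered cell calling, gates, empty droplets, scaling, thinning and chain groups.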

Additional observations from a re-analysis of the deposited data

Results flagged for a closer look

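Col12a1 and Col6a3 passed the size rule in opposite directions in different gates under the same contrast, and with 1 library per group the difference between gates was not tested. The ratio of BMT to WT for Col12a1 was 2.56 in fibroblasts and 2.54 in tendon, against 0.439 in osteolineage barcodes. With at least 4 markers none of these passed, at 1.04, 1.59 and 0.588. The ratio of aGVHD to BMT for Col6a3 was 2.74 in LepR stromal barcodes, against 0.254 in chondrocyte, 0.393 in fibroblast, 0.246 in tendon and 0.358 in mural barcodes. After thinning to 1000 UMIs it was 1.72 in LepR stromal, 0.2375 in chondrocyte, 0.460 in tendon and 0.184 in mural barcodes, and none of these passed.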

How the results depend on the processing

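No paired analysis was possible because each group has 1 library, and for the same reason no replicate could be left out. Of the alternatives, 149, 180 and 190 counts of chains, shares of the leading group and summed levels stayed within 1.5 times or on the same side of their limits. The rest were 30, 10 and 1 stronger and 14, 3 and 2 weaker, so the counts changed most often. A setting that left a gate under 20 barcodes in a library gave no value. Without the limit from empty droplets, the chains past the rule in BMT over WT numbered 13 in LepR stromal, 16 in osteolineage, 7 in chondrocyte, 11 in fibroblast, 7 in tendon, 19 in endothelial, 4 in mural and 2 in muscle lineage barcodes. In aGVHD over BMT they numbered 5 in LepR stromal, 18 in fibroblast, 12 in endothelial, 12 in mural and 5 in Schwann barcodes. Shares of all genes under these other settings are not given. The counts therefore do not tell whether collagen chains differed from other genes.

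Other counts in BMT over WT were, in the mural gate, 1 with at least 20 UMIs, 1 with empty droplets of at most 50 UMIs, 3 under 5% mitochondrial UMIs and 1 without the 10% of barcodes with the most UMIs. They were 0 with at least 2 markers, 0 with at least 4 and 1 after thinning in tendon, 0 with at least 4 markers and 2 without the top 10% in osteolineage, 1 with markers at 5 times free RNA and 0 after thinning in chondrocyte, and 1 with at least 20 UMIs in LepR stromal barcodes. In aGVHD over BMT the mural count was 3 with at least 2 markers, 2 with at least 20 UMIs, 3 with empty droplets of at most 50 UMIs, 9 under 5% mitochondrial UMIs, and 0 with at least 4 markers, with markers at 5 times free RNA, with barcodes of several gates kept, after thinning and without the top 10%. The Schwann count was 4 with at least 2 markers and under 5% mitochondrial UMIs, and 2 with at least 20 UMIs, barcodes of several gates kept, markers at 5 times free RNA, median of ratios scaling or without the top 10%. The LepR stromal count was 1 after thinning and 1 without the top 10%, and the tendon count 8 after thinning.

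The share of the chain kind that led in WT differed by -0.492 points in mural BMT against WT, but by -23.3 with at least 4 markers, -15.5 with markers at 5 times free RNA and -14.1 without the top 10%. Mural aGVHD against BMT gave -8.98 points with each barcode alike, against -39.2. Endothelial BMT against WT gave -5.01 with each barcode alike and -2.72 without the top 10%, against -46.5. Chondrocyte aGVHD against BMT gave -31.0 and -14.0 with at least 2 and 4 markers, -14.1 with markers at 5 times free RNA, -12.1 with empty droplets of at most 50 UMIs, -11.1 with each barcode alike and -11.4 with type XI chains as fibrillar, against -8.88. That last setting gave -10.2 in LepR stromal BMT against WT, where each barcode alike gave 2.35, against -8.61. The summed level ratio of aGVHD to BMT was 0.365 in Schwann barcodes with at least 2 markers, and 0.553 and 0.652 in mural barcodes with at least 4 markers and without the top 10%. Col25a1 in chondrocyte barcodes, BMT over WT, turned to 4.37 after thinning. Col15a1 in endothelial barcodes with Selp and without Gpihbp1 had a BMT to WT ratio of 1.10 (0.742 to 1.58). The interval covers both directions and the BMT side rests on 10 barcodes with 34 UMIs, so this ratio shows no turn. The limit on barcodes per gate was not applied to this subset. Leaving out the 10% of barcodes with the most UMIs was chosen after seeing the data, and the causes were not tested.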

Other observations

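Among haematopoietic gates, Col5a1, a type V chain, was measured in erythroid barcodes of each library. Its levels were 52.8, 66.2 and 39.7 CPM in WT, BMT and aGVHD, from 432, 134 and 454 UMIs, while Col1a2 was 449, 162 and 4.20 CPM. In aGVHD Col5a1 gave 62.2% of erythroid collagen UMIs. Col5a1 stood below the empty droplets in every library, at 0.340, 0.469 and 0.949 times their level, with 0.0193 times for Col1a2 in aGVHD. The 10% of erythroid barcodes with the most collagen held 92.5%, 84.2% and 72.5% of the collagen UMIs. There were 0.118, 0.407 and 9.46 Col5a1 UMIs per Col1a2 UMI in erythroid barcodes, with an interval of 7.01 to 13.0 in aGVHD, and 0.0539, 0.0286 and 0.192 in empty droplets.

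In B lineage barcodes of BMT, Col27a1 was 65.4 CPM (51.2 to 82.2) from 73 UMIs and Col5a3 37.6 CPM (27.1 to 50.8) from 42 UMIs. These levels were 1.06 and 0.591 times the empty droplets. Their ratios to Col1a2 were 0.716 (0.523 to 0.976) and 0.412 (0.280 to 0.595), against 0.0126 and 0.0129 in the empty droplets of BMT. In T and NK barcodes of WT, 7 of 66 barcodes held 97.4% of the collagen UMIs.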
